A study of Homo sapiens with 9 samples.

Results

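The 10 genes described here are 6 Toll-like receptors (TLR1, TLR2, TLR3, TLR4, TLR5 and TLR6), the interleukin-1 receptor gene IL1R1, the adaptor gene MYD88 and the kinase genes IRAK1 and IRAK2. They were taken by symbol from a table of 58735 genes, of which 18195 had enough reads to be tested. Of the 10 genes, 8 were tested, and TLR2 and TLR4 were below detection. All 3 groups were cells of HEK293A, a subclone of a human embryonic kidney line, with a knockout of p65 (RELA). The first group was given a plasmid for p65 2CS, the second a plasmid for p65 WT and the third an empty vector, and 24 h later all of them received TNF at 20 ng/mL for 2 h. Each group has 3 RNA-seq libraries. The study asked how palmitoylation of p65 bears on gene expression. The labels do not give the meaning of 2CS, the promoter of the plasmids, whether the knockout line is 1 clone or whether libraries came from different cultures, so that p-values measure the spread between these libraries, which may be technical. Every group received TNF, so its own effect on these genes is not measured.

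Toll-like receptors recognise microbial molecules at the cell surface or in endosomes, and the interleukin-1 receptor recognises a cytokine. Both families share the TIR domain in the cytoplasm, which recruits the adaptor MYD88 and through it the kinases IRAK4, IRAK1 and IRAK2. From there the ubiquitin ligase TRAF6 activates the kinases that release NF-kB, the transcription factor of which p65 is a subunit, whereas TLR3 uses the adaptor TICAM1. Human embryonic kidney cells are commonly used as hosts for transfected Toll-like receptors.

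Library totals were 17146134 to 25068515 counts with p65 2CS, 15989601 to 16507689 with p65 WT and 17923114 to 20162267 with vector. RELA itself was measured at 25747, 26771 and 24036 CPM (counts scaled to the TMM-normalised size of each library) with p65 2CS, 9048, 8037 and 9922 CPM with p65 WT, and 68.1, 69.0 and 65.9 CPM with vector. The libraries thus followed their labels, with 2.83-fold more RELA transcript in p65 2CS than in p65 WT cells, and plasmid transcripts could not be told apart from those of the knocked-out locus. All 8 markers chosen for this line (such as KRT8, KRT18, NEFL and PAX2) were tested, with a summed level of 2186 to 2256 CPM with p65 2CS, 2391 to 2465 CPM with p65 WT and 2515 to 2542 CPM with vector. PAX2 and NEFM added little to it, with 298 and 122 reads over the 9 libraries. Against vector 5 markers were called lower with p65 2CS (CDH2, KRT18, KRT8, NEFL and VIM). With p65 WT 3 were called lower (CDH2, KRT18 and NEFL) and NEFM higher, at 6.97-fold. NEFM had 24 reads with p65 2CS, 84 with p65 WT and 14 with vector. It passed the expression filter only with its p65 WT libraries, so that its being tested is no separate sign of the rise. Of 10 leukocyte markers, listed because many Toll-like receptors are abundant in such cells, 2 passed the expression filter. Over all 9 libraries ITGAM had 222 reads, CSF1R 129, SPI1 72, CD79A 57, CD163 15, LYZ 13, CD68 5, CD3E 2, PTPRC 1 and TYROBP none. ITGAM had 91 reads with p65 2CS, 107 with p65 WT and 24 with vector, while CSF1R had 57, 25 and 47. In the same order SPI1 had 17, 36 and 19, CD79A 25, 15 and 17, CD163 1, 13 and 1, and LYZ 7, 2 and 4. The summed level of the 10 was 3.20 to 3.42 CPM with p65 2CS, 3.74 to 4.48 CPM with p65 WT and 1.66 to 2.40 CPM with vector, with ITGAM called higher in both comparisons with vector. Of 5 endothelial markers, VWF and CDH5 were called higher in both comparisons with vector. KDR passed neither, with log2 folds of -0.55 with p65 2CS and -0.17 with p65 WT. PECAM1 had 1 read with p65 2CS, 3 with p65 WT and 7 with vector, and TEK had 10, 16 and 11. The sum of the 5 was 11.3 to 13.6 CPM with p65 2CS, 34.6 to 40.7 CPM with p65 WT and 8.38 to 8.71 CPM with vector. The sum of 5 fibroblast markers was 68.5 to 72.7 CPM with p65 2CS, 83.8 to 88.1 CPM with p65 WT and 72.8 to 79.8 CPM with vector. Against vector, COL1A1 was called higher with p65 WT alone (log2 fold 0.198) and COL3A1 lower with p65 2CS alone (-0.355). PDGFRB was called in neither comparison. LUM and DCN were not tested. LUM had 19 reads in each group, and DCN had 0 with p65 2CS or vector and 23 with p65 WT.

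Of the 8 tested genes 3 rose with p65 WT and the same 3 rose with p65 2CS, namely IL1R1, TLR5 and IRAK2, and 0 fell. The background shares of called genes were 23.4% of all tested genes in p65 2CS against vector (12.1% higher and 11.4% lower), and 28.8% in p65 WT against vector (16.4% higher and 12.5% lower). In p65 WT against vector 2976 genes were called higher and 2268 called lower, or 2561 and 3642 when only library totals were used for scaling. Both comparisons use the same vector libraries. Between the forms, 1 of the 8 genes differed, IL1R1, which was lower with p65 2CS, against a background of 31.2% called (13.4% higher and 17.9% lower, 2431 and 3254 genes, or 3098 and 2820 when only totals were used). The 8 genes had a median log2 fold over vector of 0.24 with p65 2CS, beside -0.002 over all tested genes, and of 0.21 with p65 WT, beside -0.02. Between the forms the median was 0.01, beside 0.003.

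The upstream windows of the 3 genes that rose are shown with that of IRAK1, the most abundant gene of the set, which did not pass the test in any comparison. They come from the 250 bases before a RefSeq start site on GRCh38.p14, less any bases that GENCODE counts as an exon of the gene, read 5′ to 3′ on the gene's strand in lower case, with a match to the NF-kB consensus in capitals. IL1R1 has 4 start sites in RefSeq, between which counts per gene cannot tell, and the most GC-rich window, 76.8% G or C, is shown.
IL1R1, chr2:102142496-102142745, plus strand: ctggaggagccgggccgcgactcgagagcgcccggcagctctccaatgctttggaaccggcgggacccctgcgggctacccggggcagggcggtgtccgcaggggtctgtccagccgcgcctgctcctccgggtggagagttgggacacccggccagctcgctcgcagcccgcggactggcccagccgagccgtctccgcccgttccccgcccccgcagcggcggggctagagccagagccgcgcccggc
TLR5, chr1:223143283-223143498, minus strand: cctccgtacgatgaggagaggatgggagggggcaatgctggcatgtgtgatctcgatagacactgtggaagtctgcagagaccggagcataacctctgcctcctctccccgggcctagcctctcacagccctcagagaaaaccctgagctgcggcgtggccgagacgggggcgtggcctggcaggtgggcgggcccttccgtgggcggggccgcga
IRAK2, chr3:10164669-10164864, plus strand: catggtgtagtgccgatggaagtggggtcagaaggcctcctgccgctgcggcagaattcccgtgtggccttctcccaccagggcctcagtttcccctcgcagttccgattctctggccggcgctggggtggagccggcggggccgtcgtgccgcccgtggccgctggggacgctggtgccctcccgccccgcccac
IRAK1, chrX:154019981-154020152, minus strand: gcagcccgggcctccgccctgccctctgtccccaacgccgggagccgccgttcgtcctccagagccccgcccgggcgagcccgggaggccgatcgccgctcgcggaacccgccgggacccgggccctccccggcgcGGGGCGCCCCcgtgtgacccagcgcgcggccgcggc
The consensus was searched on both strands of the full 250 bases, where the palindromic match in IRAK1, 105 to 114 bases before its start, counts once. It was found in 1 of 12 windows of the 9 genes that the RefSeq table holds and in 9.96% of the 35116 windows of all genes. None of the windows of IL1R1, TLR5 and IRAK2 held these letters, which says nothing of sites elsewhere.

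IL1R1 encodes the signalling receptor for interleukin-1 alpha and beta (ENSG00000115594, chromosome 2, 102064544 to 102179874, plus strand). It was measured at 2.73, 1.75 and 2.95 CPM with p65 2CS, 5.30, 4.62 and 5.50 CPM with p65 WT, and 1.55, 1.32 and 1.82 CPM with vector. All p65 WT libraries lay above all others, while the p65 2CS libraries overlapped those with vector in replicate 8. With p65 WT IL1R1 was 3.29-fold higher than with vector, a log2 fold of 1.72 ± 0.22 (SE, edgeR adjusted p = 3.24e-08), and this call held in all 17 alternative settings. With p65 2CS the log2 fold over vector was 0.64 ± 0.24 (edgeR adjusted p = 0.0438). That call was lost in 8 of 17 alternative settings, among them those without vector replicate 1 or 2 or p65 2CS replicate 7 or 9, with a log2 fold of 0.49 to 0.87 and an edgeR, DESeq2 or limma adjusted p of 0.0104 to 0.199 over all 17. Set directly against p65 WT, IL1R1 was 2.11-fold lower with p65 2CS, a log2 fold of -1.08 ± 0.21 (edgeR adjusted p = 5.68e-05), a difference kept in all 17 settings (-1.23 to -0.85, adjusted p of 4.36e-06 to 0.00261). The RELA transcript was 2.83-fold higher with p65 2CS than with p65 WT, and the part of that gap in this and the other differences between the forms was not tested. Above the vector mean, the mean gain of IL1R1 was 0.914 CPM with p65 2CS and 3.58 CPM with p65 WT.

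TLR5 encodes the receptor for bacterial flagellin (ENSG00000187554, chromosome 1, 223109406 to 223143282, minus strand). Its levels were 3.08, 2.62 and 2.95 CPM with p65 2CS, 2.59, 3.80 and 3.65 CPM with p65 WT, and 1.33, 0.881 and 1.27 CPM with vector. Every library with either form of p65 lay above every vector library, and the libraries of both forms overlapped. The log2 fold over vector was 1.31 ± 0.25 with p65 2CS (2.48-fold, edgeR adjusted p = 8.6e-05) and 1.53 ± 0.25 with p65 WT (2.89-fold, edgeR adjusted p = 3.69e-06). Between the forms TLR5 did not pass the test (log2 fold -0.22 ± 0.22, edgeR adjusted p = 0.483). The 95% confidence interval of the difference, -0.66 to 0.22, allows a lower level, no difference or a slightly higher level with p65 2CS.

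IRAK2 encodes a kinase-like partner of IRAK1 in the complex formed on MYD88 (ENSG00000134070, chromosome 3, 10164865 to 10243743, plus strand). It was measured at 5.004, 4.61 and 3.90 CPM with p65 2CS, 4.67, 3.61 and 4.45 CPM with p65 WT, and 2.35, 2.59 and 2.54 CPM with vector. Again the libraries of both forms overlapped and all lay above vector. IRAK2 rose 1.80-fold with p65 2CS (log2 fold 0.85 ± 0.19, edgeR adjusted p = 0.00064) and 1.70-fold with p65 WT (0.76 ± 0.19, edgeR adjusted p = 0.0019). Between the forms the log2 fold was 0.09 ± 0.18, with an interval of -0.27 to 0.44 (edgeR adjusted p = 0.77). The calls of TLR5 and IRAK2 against vector held in all 17 alternative settings. The leukocyte and endothelial marker sums given above were also higher with both forms than with vector. Of their tested genes, ITGAM, VWF and CDH5 were called higher with both forms, while CSF1R and KDR were not. ITGAM and CDH5 passed the expression filter only with their p65 libraries, so that their being tested is no separate sign of a rise. The part of other cell types in these results was not tested, and in bulk RNA fewer cells of a type and less RNA per cell cannot be told apart.

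**Figure D1:**
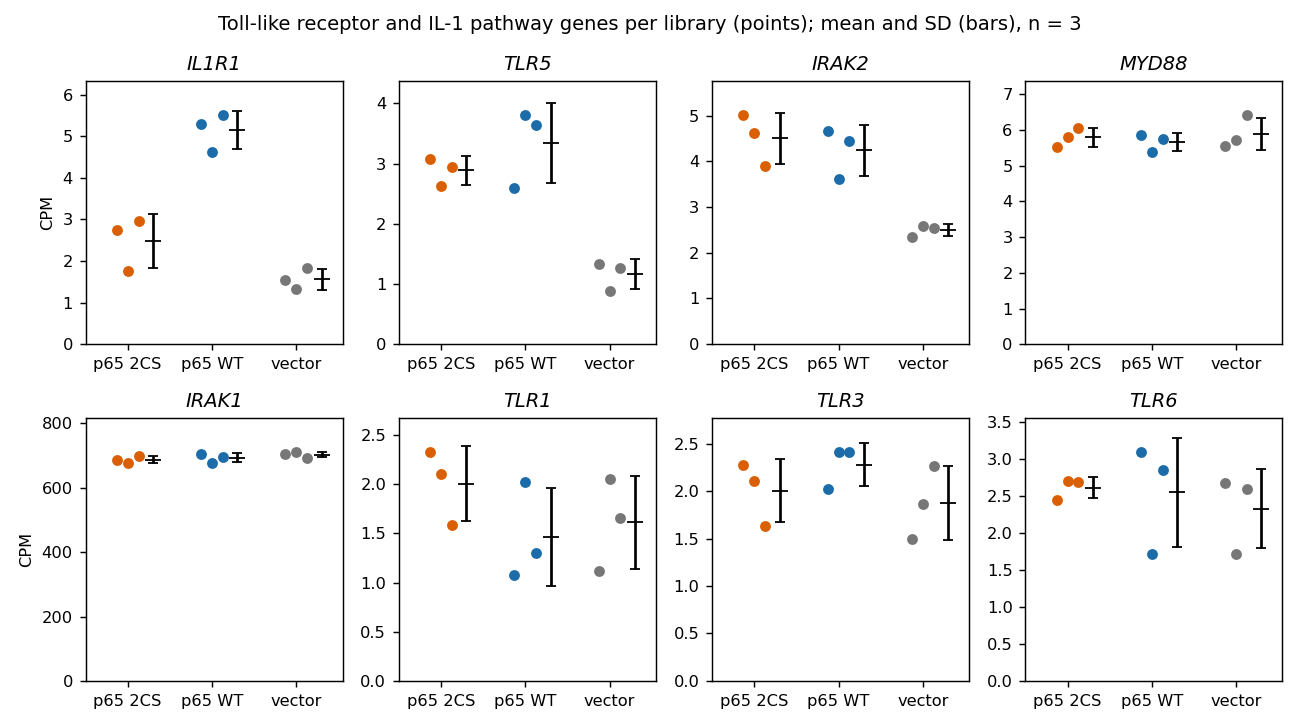
Level in CPM of each of the 8 tested genes in every library, with a panel per gene and its own axis from 0; points are libraries, and bars give mean and SD of 3 libraries of p65 2CS, p65 WT and vector. IL1R1 stands highest with p65 WT, while TLR5 and IRAK2 stand above vector with both forms.

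MYD88 and IRAK1 passed the test in none of the 3 comparisons, and their libraries overlapped between groups. MYD88, the adaptor shared by most of these receptors, averaged 5.80 ± 0.27 CPM with p65 2CS, 5.67 ± 0.25 CPM with p65 WT and 5.90 ± 0.46 CPM with vector (SD, n = 3 each). Its log2 folds over vector were -0.02 ± 0.14 with p65 2CS and -0.06 ± 0.15 with p65 WT, with intervals of -0.31 to 0.26 and -0.35 to 0.24. Between the forms it was 0.03, with an interval of -0.26 to 0.33, and none of the 3 passed the test (edgeR adjusted p = 0.938, 0.823 and 0.895). IRAK1, the kinase recruited to MYD88 by IRAK4, averaged 687 ± 11.8 CPM with p65 2CS, 693 ± 14.8 CPM with p65 WT and 702.5 ± 8.55 CPM with vector. With 33139 to 42068 reads per group its intervals were narrow, -0.08 to 0.02 with p65 2CS and -0.07 to 0.03 with p65 WT over vector, and -0.06 to 0.04 between the forms (edgeR adjusted p = 0.38, 0.61 and 0.747). With only library totals for scaling, IRAK1 passed the test in p65 WT against vector, at a log2 fold of -0.062 (edgeR adjusted p = 0.042). The median over all tested genes with that scaling was -0.065. IRAK1 overlaps the microRNA gene MIR718 on the same strand, which had 4 reads in all.

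Of the receptors for lipopeptides, TLR1 and TLR6 were detected at a few CPM and their partner TLR2 was not. TLR1 was measured at 2.33, 2.11 and 1.58 CPM with p65 2CS, 1.07, 2.03 and 1.30 CPM with p65 WT, and 1.12, 2.06 and 1.66 CPM with vector, and TLR6 at 2.44, 2.70 and 2.69 CPM with p65 2CS, 3.09, 1.71 and 2.84 CPM with p65 WT, and 2.67, 1.71 and 2.60 CPM with vector. The groups overlapped for both genes. The log2 folds of TLR1 were 0.31 ± 0.27 with p65 2CS over vector, -0.14 ± 0.30 with p65 WT over vector and 0.45 ± 0.29 between the forms, none past the test (edgeR adjusted p = 0.471, 0.771 and 0.249). For TLR6 they were 0.18, 0.14 and 0.04, with intervals between -0.44 and 0.65 (edgeR adjusted p = 0.647, 0.72 and 0.929). Both genes start at the same end of a shared locus on chromosome 4 (38790677 to 38856817 for TLR1 and 38823715 to 38856817 for TLR6, minus strand), share 57 exonic bases, and have 5.33% and 5.12% of their 50-base transcript windows in common with another gene, so that a small share of reads could have been dropped or exchanged. TLR3, an endosomal receptor for viral RNA, was at 2.27, 2.11 and 1.63 CPM with p65 2CS, 2.02, 2.41 and 2.41 CPM with p65 WT, and 1.49, 1.86 and 2.27 CPM with vector, and the groups overlapped. Its log2 folds over vector, 0.10 ± 0.25 with p65 2CS and 0.28 ± 0.25 with p65 WT, did not pass the test (edgeR adjusted p = 0.827 and 0.434), and the interval with p65 WT reached from -0.22 to 0.79. At 70 to 161 reads per group, the upper ends of the intervals over vector were 0.86 for TLR1, 0.79 for TLR3 and 0.65 for TLR6 on the log2 scale.

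TLR2 and TLR4, the receptor for lipopolysaccharide, had no read in any of the 9 libraries, like 21851 genes of the table. With 3 counts as the limit that a group total of 0 allows, TLR2 and TLR4 could each reach 0.0489 CPM with p65 2CS, 0.0627 CPM with p65 WT and 0.0524 CPM with vector, for counting error only. No fold could be given for either. Of the co-receptors of TLR4, LY96 had 2 reads in all 9 libraries, all with vector, and CD14 was at 0.614 ± 0.24 CPM with p65 2CS, 0.711 ± 0.22 CPM with p65 WT and 0.565 ± 0.15 CPM with vector (edgeR adjusted p = 0.921 and 0.631 against vector).

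**Figure D2:**
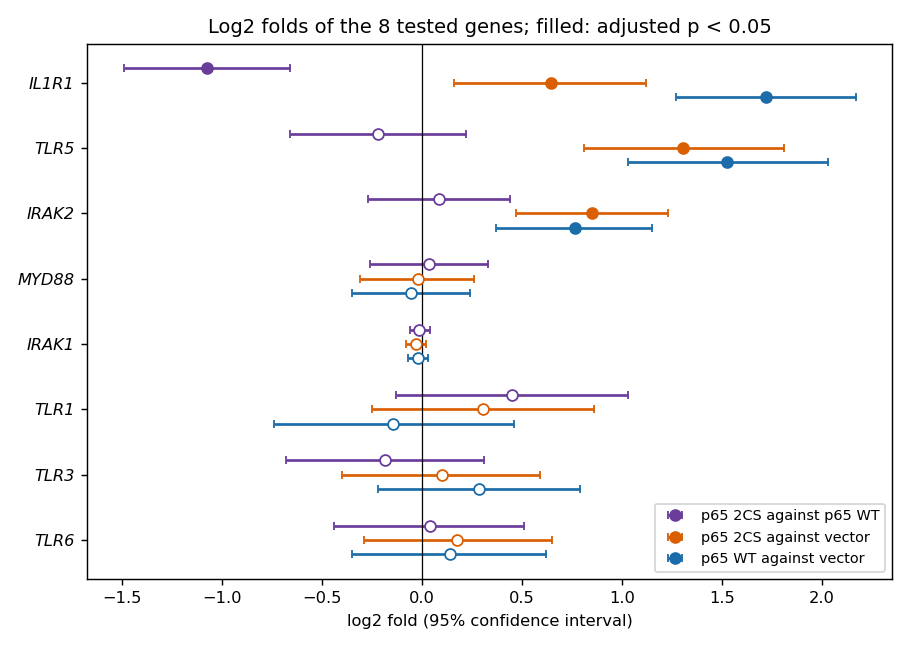
Log2 folds of the 8 tested genes with 95% confidence intervals in the 3 comparisons; filled points passed the test. Filled points appear for IL1R1 in all 3 comparisons and for TLR5 and IRAK2 in both comparisons with vector.

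Compared per length in TPM, the counts divided by the deposited gene lengths and scaled to a common total, IRAK1 stood far above the rest. Its mean over the 9 libraries was 640.6 TPM, at the 99.2 percentile of tested genes, or 120 times MYD88 at 5.36 TPM and 161 times IRAK2 at 3.97 TPM. The 5 tested receptors lay between 1.12 TPM for TLR3 and 1.58 TPM for IL1R1, at percentiles of 8.86 to 12.7. With p65 2CS the order was IRAK1 (646 TPM), MYD88 (5.47), IRAK2 (4.87), TLR1 (1.67), TLR6 (1.63), TLR5 (1.40), IL1R1 (1.32) and TLR3 (1.12), where the libraries of MYD88 and IRAK2, of TLR1 and TLR6, of TLR5 and IL1R1 and of IL1R1 and TLR3 overlapped. With p65 WT IL1R1 took the 4th place, at 2.61 ± 0.21 TPM, clear of IRAK2 above it (4.38 ± 0.54) and of TLR5 below it (1.55 ± 0.32), and the receptors from TLR5 down overlapped with their neighbours. With vector TLR5 was the lowest, at 0.557 ± 0.12 TPM, below IL1R1 at 0.821 ± 0.13 TPM, and the libraries of both did not overlap, while TLR6, TLR1, TLR3 and IL1R1 each overlapped with the next.

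**Figure D3:**
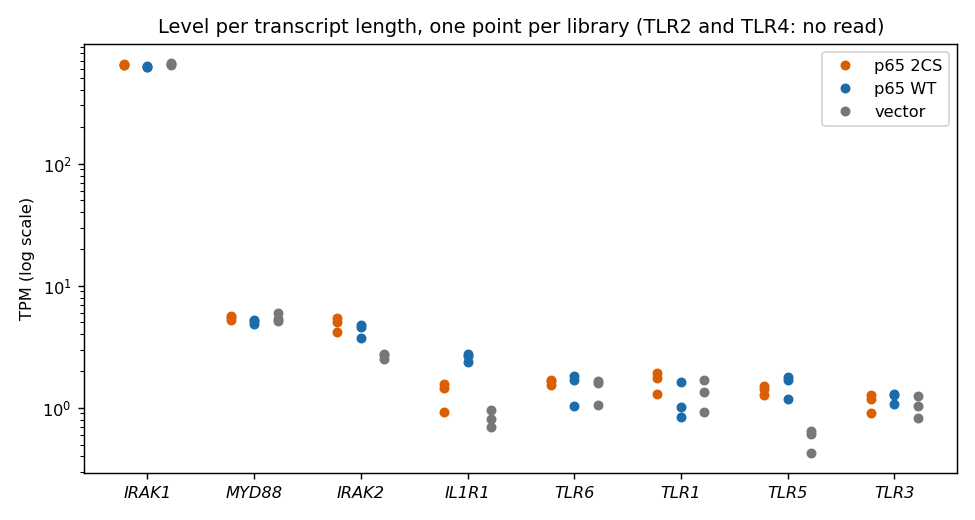
Level per length in TPM on a log scale, a point per library, with genes in order of their mean over the 9 libraries. IRAK1 lies near 640.6 TPM and all others below 6 TPM; TLR2 and TLR4 had no read and are not drawn.

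IL1R1 lies in a cluster of 6 IL-1 family receptor genes on chromosome 2 that spans 460.7 kb, and the cluster was taken up after the values of its genes were seen. IL1R2, at its start, encodes a decoy receptor that binds interleukin-1 without signalling. It was measured at 0.407, 0.159 and 0.211 CPM with p65 2CS, 2.78, 2.22 and 2.84 CPM with p65 WT, and 0.374, 0.245 and 0.387 CPM with vector. The p65 WT libraries alone stood apart: the log2 fold over vector was 2.95 ± 0.38 with p65 WT (edgeR adjusted p = 3.68e-08) and -0.42 ± 0.54 with p65 2CS (edgeR adjusted p = 0.64), and p65 2CS was 10.3-fold lower than p65 WT (log2 fold -3.37 ± 0.40, edgeR adjusted p = 5.48e-09). IL1RL2, the binding chain of the interleukin-36 receptor, had no read with p65 2CS or vector, while the p65 WT libraries held 1.58, 0.824 and 1.67 CPM. With the p65 WT reads taken as exact, that is at least 27.8-fold lower with p65 2CS than with p65 WT (edgeR adjusted p = 5.76e-08). Over vector it is at least 25.9-fold higher with p65 WT (edgeR adjusted p = 7.12e-08). IL1R2 and IL1RL2 passed the expression filter only through their p65 WT libraries, so that their being tested is no separate sign of the rise.

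Farther along the cluster, IL18R1, the binding chain of the interleukin-18 receptor, rose with both forms, to 16.9 ± 0.55 CPM with p65 2CS and 33.4 ± 0.40 CPM with p65 WT, against 7.70 ± 0.91 CPM with vector (SD, n = 3 each). Its log2 folds were 1.14 ± 0.09 and 2.12 ± 0.09 over vector (edgeR adjusted p = 7.87e-13 and 4.34e-23), and -0.98 ± 0.08 for p65 2CS against p65 WT (edgeR adjusted p = 1.12e-13). IL18RAP, the accessory chain of that receptor, was at 0.698, 1.27 and 0.316 CPM with p65 2CS, 0.820, 0.950 and 0.309 CPM with p65 WT, and 0.0534, 0.0979 and 0.166 CPM with vector. It rose with both (log2 folds 2.84 ± 0.64 with p65 2CS and 2.65 ± 0.68 with p65 WT, edgeR adjusted p = 0.000923 and 0.00235), and leaving out p65 2CS replicate 8, which held most of the p65 2CS reads, lowered the fold with p65 2CS to 2.18 on the log2 scale (edgeR adjusted p = 0.0441). IL18RAP passed the expression filter only with its p65 libraries, so that its being tested is no separate sign of the rise. Against vector it was tested in 15 of the 17 alternative settings. IL18RAP had a log2 fold between the forms of 0.20 ± 0.47 (edgeR adjusted p = 0.8). IL1RL1, the interleukin-33 receptor, had no read, but its span overlaps that of IL18R1 on the same strand, so that shared reads could have gone to neither or to IL18R1. Outside the cluster, MAP4K4 before it had log2 folds over vector of 0.09 ± 0.03 with p65 2CS and 0.12 ± 0.04 with p65 WT (edgeR adjusted p = 0.0533 and 0.00548), and SLC9A2 after it -0.17 ± 0.18 and 0.17 ± 0.18 (edgeR adjusted p = 0.574 and 0.531). SLC9A4, between the cluster and SLC9A2, was not tested and had 15 reads with p65 2CS, 40 with p65 WT and 1 with vector, ratios over vector of 14.01 with p65 2CS (95% counting interval 2.15 to 589.7) and 47.9 with p65 WT (8.12 to 1939).

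**Figure D4:**
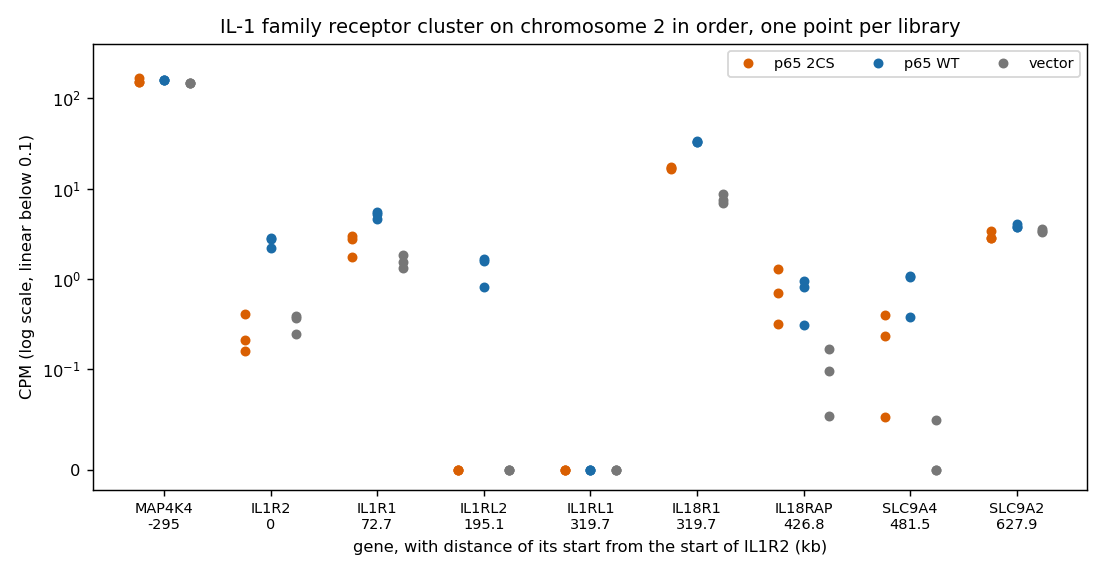
Level in CPM, on a log scale that is linear below 0.1, of the protein-coding genes around IL1R1 in order of position, with the distance of each start from that of IL1R2 in kb; points are libraries. IL1R2 and IL1RL2 stand out with p65 WT alone, and IL18R1 is graded over the 3 groups. Outside the cluster, the untested SLC9A4 had 15 reads with p65 2CS, 40 with p65 WT and 1 with vector. MAP4K4 and SLC9A2 lie close together in all groups on this scale, though MAP4K4 was called slightly higher with p65 WT than with vector.

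The co-receptor of IL1R1 moved the other way. IL1RAP, the accessory chain that IL1R1 needs for signalling, fell to 16.5 ± 0.48 CPM with p65 2CS and to 14.6 ± 0.59 CPM with p65 WT, against 21.8 ± 1.59 CPM with vector (SD, n = 3 each). The log2 folds over vector were -0.40 ± 0.08 and -0.58 ± 0.08 (edgeR adjusted p = 0.000187 and 4.09e-07), and all vector libraries lay above all others. Of the ligands, IL1A, which encodes interleukin-1 alpha, was at 0.349, 0.596 and 0.738 CPM with p65 2CS, 2.15, 1.58 and 1.17 CPM with p65 WT, and 0.214, 0.343 and 0.166 CPM with vector. It rose with p65 WT (log2 fold 2.71 ± 0.45, edgeR adjusted p = 5.37e-06), was 1.20 ± 0.51 over vector on the log2 scale with p65 2CS (edgeR adjusted p = 0.0883), and was 2.85-fold lower with p65 2CS than with p65 WT (edgeR adjusted p = 0.00189). IL1A, too, passed the expression filter only with its p65 WT libraries. IL1B had 6 reads with p65 2CS, 6 with p65 WT and none with vector.

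Among direct partners inside the cell, TICAM1, the adaptor of TLR3, rose with both forms, to 29.6 ± 1.87 CPM with p65 2CS and 27.0 ± 1.94 CPM with p65 WT, against 17.0 ± 0.51 CPM with vector (log2 folds 0.80 ± 0.08 and 0.67 ± 0.08, edgeR adjusted p = 5.72e-11 and 3.51e-09). Between the forms its log2 fold was 0.13 ± 0.07 (edgeR adjusted p = 0.178). IRAK4, the kinase that acts first on MYD88, was at 23.4 ± 2.33 CPM with p65 2CS, 19.5 ± 1.49 CPM with p65 WT and 23.6 ± 1.31 CPM with vector. It fell with p65 WT (log2 fold -0.28 ± 0.08, edgeR adjusted p = 0.00824, and -0.24 with adjusted p = 0.054 without vector replicate 3). It was higher with p65 2CS than with p65 WT (0.27 ± 0.08, edgeR adjusted p = 0.0108). Leaving out p65 2CS replicate 9, p65 WT replicate 4 or p65 WT replicate 6 ended that call (edgeR adjusted p = 0.102, 0.0554 and 0.0529). TRAF6 was 0.24 ± 0.06 higher on the log2 scale with p65 2CS than with p65 WT (edgeR adjusted p = 0.0023) and passed neither comparison with vector. IRAK3, an inhibitory relative of IRAK1, and TIRAP, the adaptor that bridges TLR2 and TLR4 to MYD88, passed none of the 3 comparisons, with log2 folds of 0.60, 0.002 and 0.60 for IRAK3 and 0.03, 0.29 and -0.26 for TIRAP in p65 2CS against vector, p65 WT against vector and p65 2CS against p65 WT.

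The wider pathway was counted over a list of 63 other genes, of which 45 were tested. With p65 2CS 13 of the 45 rose and 4 fell against vector, beside 12.1% higher and 11.4% lower over all tested genes. With p65 WT 18 rose and 5 fell, beside 16.4% and 12.5%. Between the forms 4 were higher and 15 lower with p65 2CS (8 and 15 when only library totals were used for scaling), beside 13.4% and 17.9%. The share that fell against vector was thus near or below that of all genes. It also rested on single libraries: the 4 falls with p65 2CS became 2 without p65 2CS replicate 8 or vector replicate 1, and the 5 falls with p65 WT became 3 without p65 WT replicate 5 or 6 or vector replicate 3, and 2 without vector replicate 2. With DESeq2 there were 2 falls in each. The medians of the 45 log2 folds were 0.06, 0.09 and -0.04, beside -0.002, -0.02 and 0.003 over all tested genes. Among the 45, IL1R2, IL1RL2, IL1A and the co-receptor gene CD36 passed the expression filter only with their p65 WT libraries. IL18RAP passed it only with its p65 libraries. Their being tested is thus no separate sign of the differences counted here. The genes with the greatest changes included the feedback inhibitors TNFAIP3 and NFKBIA, with log2 folds over vector of 2.80 and 1.61 with p65 2CS (edgeR adjusted p = 1.94e-29 and 6.13e-29) and 4.95 and 3.12 with p65 WT (edgeR adjusted p = 1.11e-41 and 3.39e-41). Set directly against p65 WT, they were 4.45-fold and 2.86-fold lower with p65 2CS (edgeR adjusted p = 1.76e-33 and 5.63e-32). In CPM, TNFAIP3 averaged 48.6 ± 3.42 with p65 2CS, 217 ± 4.43 with p65 WT and 6.97 ± 0.83 with vector (SD, n = 3 each). IKBKE, a kinase that acts on interferon regulatory factors, rose by 0.99 with p65 2CS and by 2.84 with p65 WT on the log2 scale (edgeR adjusted p = 9.49e-07 and 3.28e-22), and IRF7, one of those factors, rose by 0.82 ± 0.09 with p65 2CS and by 0.71 ± 0.09 with p65 WT (edgeR adjusted p = 3.12e-09 and 5.99e-08). Of the 6 tested IL-1 family receptors other than IL1R1, 2 rose and 1 fell with p65 2CS, and 4 rose and 1 fell with p65 WT. Of 4 adaptors TICAM1 alone passed the test, and of 3 genes of the IRAK group IRAK4 alone, with p65 WT. Of 5 genes that restrain the pathway 3 rose with each form and 3 were lower with p65 2CS than with p65 WT, namely TNFAIP3, NFKBIA and TNIP1 in each case, and of 8 downstream kinases and interferon regulatory factors 2 rose with p65 2CS, while 4 rose and 1 fell with p65 WT. Of the 5 tested co-receptors and chaperones 2 fell with p65 2CS and 2 rose with p65 WT. Of the 12 ubiquitin ligase and TAK1 complex genes 5 rose and 1 fell with p65 2CS, and 3 rose and 2 fell with p65 WT. Several of these smaller calls ended in some of the 17 alternative settings. With p65 2CS the fall of UBE2N was lost in 6 and that of CNPY3 in 4. With p65 WT the falls of MAP3K7, CHUK and PELI2 were lost in 10, 7 and 4, and the rises of CNPY3 and IKBKG in 5 and 2. None of the 4 other Toll-like receptors could be tested. TLR7, an endosomal RNA receptor, had 7 reads with p65 2CS, 18 with p65 WT and none with vector, at least 2.18-fold and 7.19-fold higher, and was singled out after its values were seen. TLR8 had no read, and TLR9 and TLR10 had 6 and 10 reads over all libraries.

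**Figure D5:**
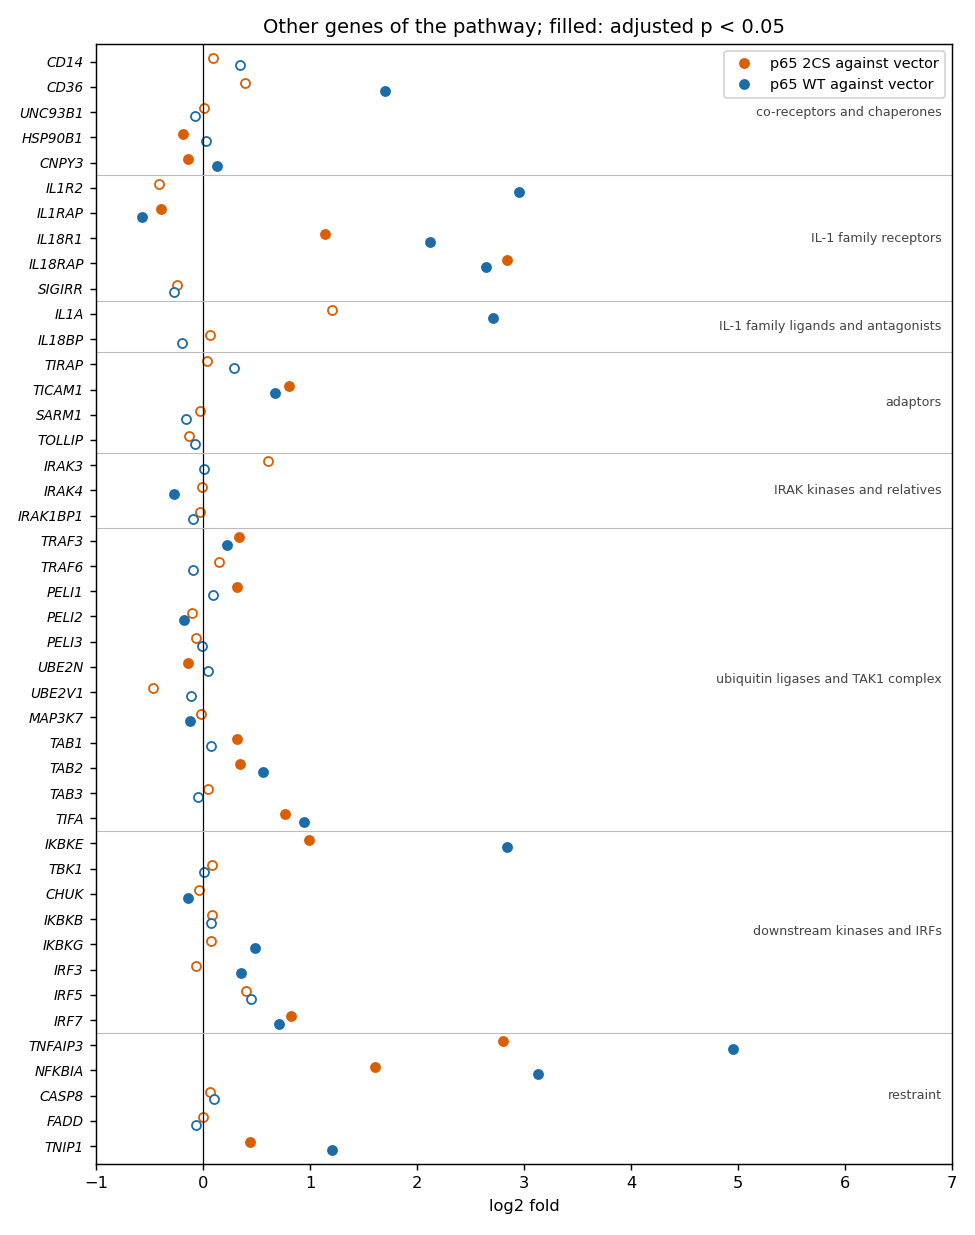
Log2 folds against vector of the other tested genes of the pathway, grouped by role, with p65 2CS above p65 WT in each row; filled points passed the test. IL1RL2 is not drawn, since it had no read with vector. TNFAIP3, NFKBIA, IL1R2 and IKBKE lie farthest to the right with p65 WT.

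By their pattern over the 9 libraries (log2 CPM with a prior count of 2, centred on each gene's mean), the 5 tested genes most like IL1R1 were CLEC2D, ZNF235, HOXA7, TNFSF9 and KANSL1-AS1. Their root-mean-square difference from IL1R1 was 0.17 to 0.20 on the log2 scale, against a median of 0.75 over all tested genes. As they were chosen for the smallest difference, their place below the median was fixed by that choice. TNFSF9, a ligand of the TNF family, had 17.0 CPM with p65 2CS, 35.0 CPM with p65 WT and 10.5 CPM with vector, and ZNF235 8.36, 19.2 and 5.30 CPM in the same groups. KANSL1-AS1 is an antisense RNA whose reads may include those of its partner.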

How the data were processed

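RNA was measured by poly-A selected sequencing, per the labels' protocols, which describe both a directional and a non-directional kit. The deposited table holds raw counts of reads for each gene in 9 library columns, and the deposited gene length in bases, which has no stated source. HISAT2 2.0.5 was used, per the submitters' processing notes. Neither the counter nor its use of strand nor the build is stated there (not given in the sources used here). All 58735 identifiers matched GENCODE release 29 in position, strand and symbol, an annotation of GRCh38, the build used for all positions. As the use of strand is unknown, reads of antisense partners and overlapping genes cannot be told apart.

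From the counts, edgeR 4.0.16 in R 4.3.3 gave a quasi-likelihood F test from a single model with all 9 libraries and 3 group means, after edgeR's expression filter and TMM scaling. P-values were adjusted by Benjamini-Hochberg across the 18195 tested genes and called at 0.05, and a gene that failed the filter is called below detection or not tested. CPM uses TMM-scaled totals. TPM uses the deposited lengths. The standard error of a log2 fold was derived from its F statistic. A fold against a group without reads uses 3 counts over that group and is written as "at least". It takes the reads of the other group as exact. A ratio with 1 to 3 counts has an exact 95% binomial (Clopper-Pearson) interval, and both are for counting error only. Within groups, replicates differed beyond sampling noise (chi-square over its degrees of freedom between 1.91 and 2.65), so none was treated as a duplicate of another library, which does not show that they are separate cultures. On simulated data for p65 WT against vector the test recovered 77.6% of 98 genes changed by 1 on the log2 scale. Of 97 genes changed by 2 it recovered 97.9%, and 9 of the 180 calls were false. Far fewer genes changed there than were called in the data. The shares are over genes of all levels, so they do not give the recovery at the low levels of the receptors. DESeq2 1.42.0, limma 3.58.1 with voom, other scalings and filters, pairs of groups, RELA left out, and each library left out in turn were the alternatives.

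The members and lists were chosen with earlier results of these data known. Named genes are all members, RELA, and from the pathway list IL1RAP, IRAK3, IRAK4, TRAF6, TIRAP, TICAM1 and the called genes with the largest log2 folds, up to 6 per comparison, as well as the 5 genes most like the member with the largest fold. CD14, CD36, LY96, IL1B, TNIP1, the genes around IL1R1 and the untested receptors were named beyond this rule. So were UBE2N, CNPY3, MAP3K7, CHUK, PELI2 and IKBKG, for calls that were lost in alternative settings.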

Additional observations from a re-analysis of the deposited data

How the results depend on the processing

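Under 17 alternatives the 8 tested genes gave 408 log2 folds, of which 399 kept their side of the threshold or stayed uncalled, 8 lost a call, 1 gained one and 0 called values changed direction. The 8 losses all concern IL1R1 in p65 2CS against vector. The log2 fold there was 0.66 with DESeq2 (adjusted p = 0.0706), 0.59 with limma-voom (adjusted p = 0.105), 0.65 without a filter beyond 1 read (edgeR adjusted p = 0.0671), 0.65 with only those 2 groups fitted (edgeR adjusted p = 0.0576), and 0.49 to 0.64 without vector replicate 1 or 2 or p65 2CS replicate 7 or 9. The gain was IRAK1 in p65 WT against vector, at -0.062 with libraries scaled by their totals alone (edgeR adjusted p = 0.042). In that setting the median over all tested genes was -0.065. The cause of these changes was not tested. In every alternative 2 or 3 of the 8 genes were called with p65 2CS over vector, 3 or 4 with p65 WT over vector, and 1 between the forms. No paired analysis was possible because no replicate number is shared between groups. Depth limits the receptors most, since TLR1, TLR3, TLR5, TLR6 and IL1R1 had between 66 and 246 reads per group.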
